A study of Homo sapiens with 42 samples.

Results

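The divergent and inactive higher-order alpha satellite arrays are 182 of the 2523 named regions of the count table. Members were taken by name: 103 regions carry the table's prefix for divergent higher-order repeats, and 79 of its 120 higher-order rows lack the L that marks a live array. The other 41 higher-order rows are live arrays, and 191 further rows are monomeric alpha satellite. KG1, an acute myelogenous leukaemia cell line, had been exposed for 1 h to 100 µM etoposide, to 20 µM mitoxantrone or to vehicle, and sonicated DNA was pulled down with antibodies to TOP2A or TOP2B or kept as input. TDP2, which takes topoisomerase adducts off DNA ends, was applied to the eluate, and BsmAI digestion preceded library construction. There were 4 etoposide replicas, called E1 to E4 here, and 3 mitoxantrone replicas, called M1 to M3. Each replica gave 6 libraries from one sequencing order, namely TOP2A, TOP2B and input with the drug and the same 3 with vehicle (labelled no drug), so that 42 libraries fell into 12 groups. All groups share the one cell line, and the labels do not say whether replicas were separate cultures, so p-values measure only the spread between these libraries, which may be technical.

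Alpha satellite is the AT-rich tandem repeat found at every human centromere. In a higher-order array, a block of diverged monomers is repeated as a near-identical unit. The live array of a chromosome is the one that carries the kinetochore, inactive arrays lie beside it, and divergent arrays are older ones whose copies have drifted apart. TOP2A and TOP2B pass one DNA duplex through another by way of a transient protein-linked break. TOP2A is the isoform of dividing cells and removes the catenation that holds sister centromeres together before they separate, while TOP2B is also present in resting cells. Both drugs are poisons of these enzymes and hold them on the broken DNA. A region's name gives its suprachromosomal family (SF, a class of monomers shared between chromosomes), its chromosome or chromosomes and the number of the array. In S01C3/6H1d, for example, S01 is the family, C3/6 marks an array type shared by chromosomes 3 and 6, and the d marks a divergent array. CM stands for several chromosomes.

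The depth set a hard limit on single arrays. Reads in named regions numbered 23900 to 3207823 per library (median 351072), and the part of all reads set aside for low mapping quality was 21.1% to 68.3%. Each library's reads in the 2523 regions were the denominator of every share, and CPM below means reads per 1000000 of them. Shares are therefore relative. Region lengths were not used here, so reads of different regions are not densities. Reads from near-identical arrays can be lost or assigned to the wrong copy, so single-region values of arrays with a shared name are uncertain. Read length was 38 bp in E1, 100 bp in M1 and 50 bp in the other replicas. In M1, 54.5% to 68.3% of reads were at low mapping quality. Replicas of unlike read length are averaged below, and the effect of read length was not tested. The 3 etoposide libraries of E3 were the shallowest of their kinds, with 23900 reads in TOP2A, 39003 in TOP2B and 77373 in input. The etoposide TOP2A library of E2 stood apart from the other 5 libraries of that replica, with 71055 region reads and 52.1% of reads at low mapping quality.

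The divergent arrays gave 64733 reads over the 42 libraries and lay on 22 chromosomes under 21 array names. Their reads were concentrated. The regions dhor_6_1 and dhor_3_2, which carry the same array name, S01C3/6H1d, held 31.6% of the class, and the 6 most abundant regions held 49.2%. The median region had 267 reads in total, 30 of the 103 regions had under 100, and 6 had a read in every library. Chromosome 6 gave 20.5% of the reads from 2 regions, chromosome 3 gave 18.0% from 5 and chromosome 1 gave 10.4% from 4. Chromosomes 12, 16 and 19 followed with 7.68%, 6.04% and 6.01%. Chromosomes 13, X and 21 gave 0.0865%, 0.114% and 0.130%, and each of them had no read in 25 of the 42 libraries.

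The inactive arrays gave 33184 reads on 19 chromosomes, under 52 array names. They were spread more evenly, since the first 2 regions held 16.8% of the class and the first 6 held 36.2%. The median region had 261 reads, 22 of the 79 had under 100, and none of the 79 had a read in every library. Chromosome 18, whose S2C18H2 array is broken into 6 regions, gave 19.6% of the reads. Chromosome 19 gave 12.9%, chromosome 1 gave 9.91%, chromosome 3 gave 9.65% from the single region hor_3_1, and chromosome 20 gave 8.09%. Chromosomes 13 and 21 were the lowest, with 0.452% and 0.506%.

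**Figure D1:**
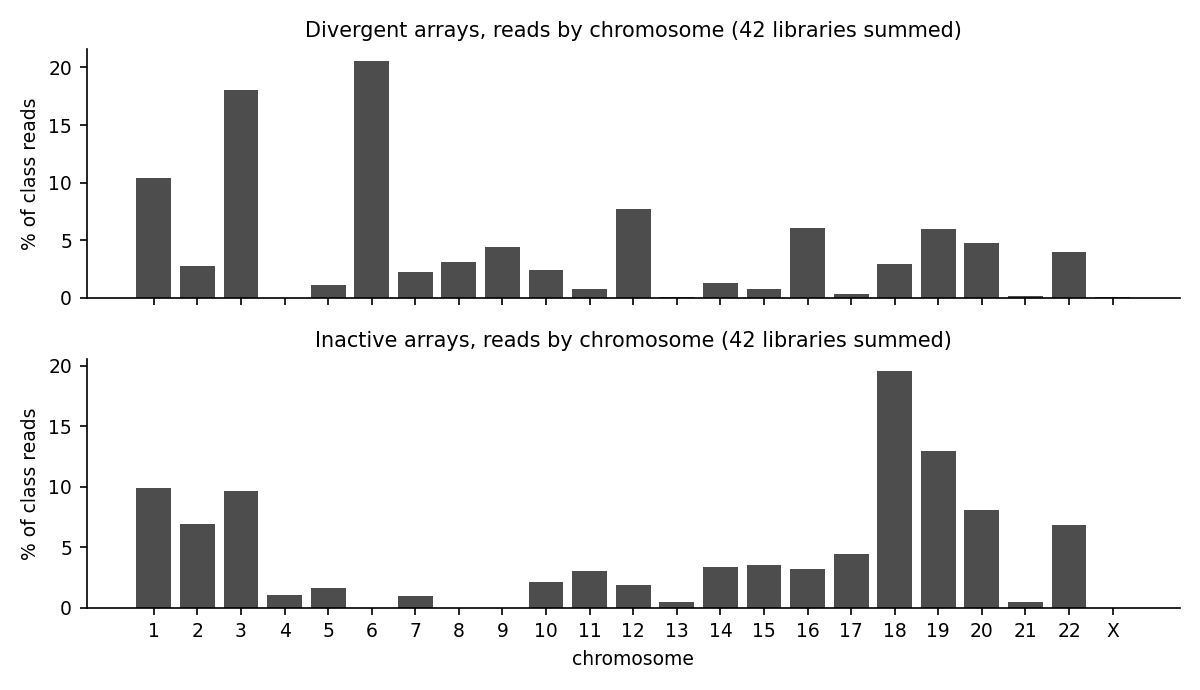
Percent of the reads of divergent arrays (upper panel) and inactive arrays (lower panel) on each chromosome, summed over the 42 libraries; chromosomes without a bar have no member or almost no reads. Chromosomes 6 and 3 carry 20.5% and 18.0% of the divergent reads, and chromosome 18 carries 19.6% of the inactive reads.

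The classes also differed in the families they hold. Family SF01 gave 44.9% of divergent reads from 17 regions, SF5 gave 20.8%, SF02 gave 13.9% and SF2 gave 9.85%. Among inactive arrays SF2 came first with 33.8% from 16 regions, ahead of SF5 with 20.1%, SF3 with 17.4% and SF01 with 9.65%. SF3 stood at 1.39% of the divergent reads. These are read shares, which depend on how much of each array the table holds.

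Across the 42 libraries the share of divergent arrays ran from 0.0220% to 0.498% of region reads (median 0.145%), on 67 to 14914 reads. That of inactive arrays ran from 0.00574% to 0.225% (median 0.0785%), on 16 to 7215 reads. The 95% Wilson interval of a share was 0.00694 to 0.179 percentage points wide for divergent arrays and 0.00350 to 0.107 for inactive arrays, and it covers counting error only. Monomeric alpha satellite moved over a like range, from 0.303% to 4.13%, and the ratio of divergent to monomeric reads stayed within 0.0727 to 0.181 (median 0.105). Live arrays ran from 0.0246% to 0.999%. The libraries of low share and those of high share were thus mostly low or high for all of alpha satellite, and what moved it was not tested. E1 and M1 are each the only replica of their read length, so replica and read length cannot be told apart there.

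**Figure D2:**
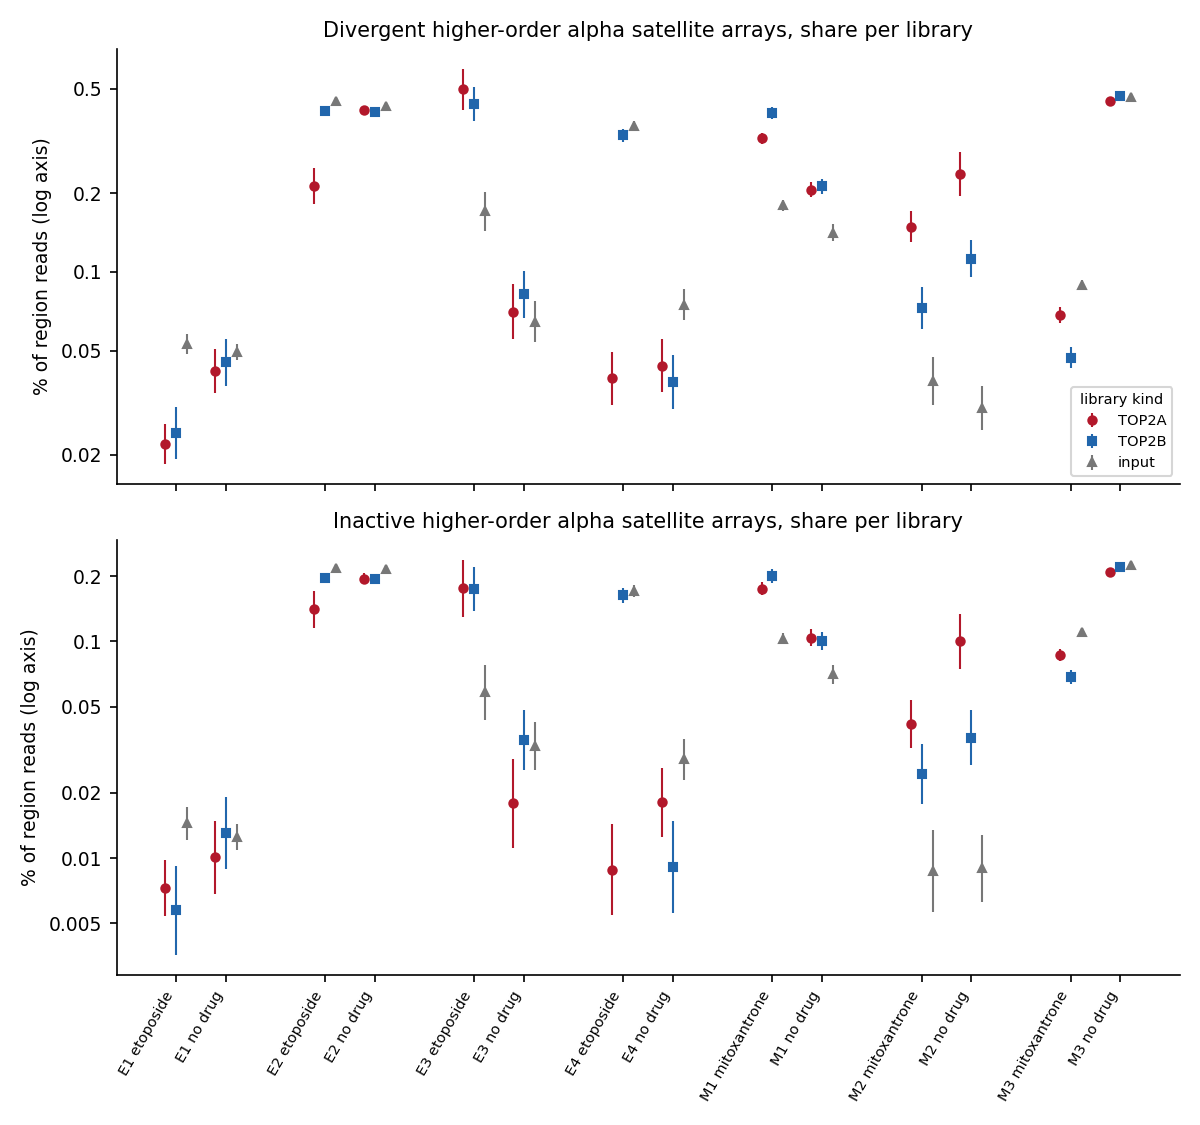
Share of region reads (percent, log axis) in divergent arrays (upper panel) and inactive arrays (lower panel) for each of the 42 libraries, by replica, with the drug libraries left of the no drug libraries; bars are 95% Wilson intervals, which cover counting error only. Replicas span a wide range, with divergent shares of 0.407% to 0.431% in the no drug libraries of E2 and of 0.0420% to 0.0496% in those of E1. Reads were 50 bp long in E2 and 38 bp long in E1.

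Whether etoposide changes the reads of these arrays was asked first in the TOP2A pulldown. In E1 the divergent share was 0.0220% with etoposide and 0.0420% without drug. In E2 it was 0.213% with etoposide and 0.414% without drug. In E3 it was 0.498% with etoposide (119 reads, interval 0.416% to 0.595%) and 0.0705% without drug (67 reads, interval 0.0555% to 0.0895%). Thus E3 alone was clearly higher with the drug. In E4 the share was 0.0392% with etoposide and 0.0439% without drug, a gap smaller than either interval. The mean log2 ratio within replicas was 0.19 ± 1.79 (SD, n = 4), and it was −0.69 without E3. Inactive arrays were likewise higher in E3 alone, with log2 ratios of −0.48 in E1, −0.46 in E2, 3.27 in E3 and −1.02 in E4 (mean 0.33 ± 1.98, SD, n = 4). That mean was −0.65 without E3. None of the 41 members tested passed an adjusted p of 0.05 in edgeR's quasi-likelihood test, against 0.0% of all 1068 regions tested. At an unadjusted p under 0.05 this test had 7 regions in this comparison and 0 to 27 over the 17 comparisons made here, and DESeq2, which also called 0 in each, had 0 to 36. These counts lie below a share of 0.05 of the regions tested, which chance alone would give. Both fits had no replica block, so their 0 calls do not show that nothing changed.

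In the TOP2B pulldown the divergent share was 0.0243% with etoposide and 0.0452% without drug in E1. It was 0.411% with etoposide and 0.407% without drug in E2. The 2 replicas from one sequencing order, E3 and E4, differed most, with 0.438% with etoposide and 0.0821% without drug in E3. In E4 the values were 0.332% (1184 reads) with etoposide and 0.0381% (67 reads) without drug. The mean log2 ratio was 1.16 ± 1.91 (SD, n = 4), higher in 3 of 4 replicas. For inactive arrays the log2 ratios were −1.17 in E1, 0.02 in E2, 2.31 in E3 and 4.12 in E4, with a mean of 1.32 ± 2.36 (SD, n = 4). Both means were smaller than their spread. Without E4 the means were 0.51 for divergent and 0.38 for inactive arrays. Again 0 of 41 members were called, beside 0.0% of 1068 regions.

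Input libraries, which saw no antibody, also differed. With etoposide the divergent share was 0.0530% in E1, 0.448% in E2, 0.171% in E3 and 0.362% in E4. Without drug it was 0.0496% in E1, 0.431% in E2, 0.0646% in E3 and 0.0750% in E4. All 4 replicas were thus higher with etoposide, by little in E1 and E2 and by more in E3 and E4. The log2 ratios were 0.09, 0.05, 1.40 and 2.27 in that order, with a mean of 0.95 ± 1.08 (SD, n = 4). Inactive arrays were likewise higher in 4 of 4 replicas, at 0.20, 0.01, 0.83 and 2.58 (mean 0.91 ± 1.17, SD, n = 4). Live arrays gave 1.01 ± 1.46 and monomeric alpha satellite 0.86 ± 1.01 in the same libraries. The edgeR test called 0 of 41 members, against 0.0% of 1068 regions.

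By chromosome, the mean log2 ratio in input was above 0 for 22 of 22 chromosomes of divergent arrays (0.17 on chromosome 7 to 1.61 on chromosome 20). It was above 0 for 19 of 19 chromosomes of inactive arrays (0.13 on chromosome 4 to 1.84 on chromosome 12). In TOP2B it was above 0 for 20 of 22 and 18 of 19 chromosomes, and in TOP2A for 15 of 22 and 12 of 19. The class means in TOP2A were −0.69 (divergent) and −0.65 (inactive) without E3, so the TOP2A counts lean on E3. Chromosomes of one library share its depth and its alpha satellite level, so these counts are not independent. The divergent regions of chromosome 6, which belong to 2 array names, summed to 3.06 in E3 and −0.47 in E4 in TOP2A, but 2.49 in E3 and 2.84 in E4 in TOP2B. In E4, TOP2A with etoposide thus stayed low for these regions, while TOP2B of the same replica was higher with the drug. Input of E4 was higher too, at 2.27 for divergent arrays as a class. Only the labels pair the E4 libraries of TOP2B and of input, whose deviations correlated at −0.21 and −0.46.

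Pulldown and input can be set against each other within etoposide. TOP2A over input was −1.26 in E1, −1.07 in E2, 1.55 in E3 and −3.20 in E4 for divergent arrays (mean −0.996 ± 1.95, SD, n = 4). For inactive arrays it was −0.98, −0.62, 1.6 and −4.23 in the same order (mean −1.06 ± 2.40, SD, n = 4). Without E4 the means were −0.26 and 0.00, and without E3 they were −1.84 and −1.94. TOP2B over input averaged 0.00 ± 1.02 for divergent and 0.02 ± 1.18 for inactive arrays (SD, n = 4 each). Neither pulldown was called for any of the 41 members, beside 0.0% of 1068 regions in both comparisons.

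The edgeR fit with the count filter and without a replica block found an unadjusted p under 0.05 for 1 member over all 17 comparisons. That was hor_14_1 (S5C13/14/21H2, inactive, chromosome 14), at −3.82 ± 1.74 (log2, SE) in TOP2A over input under etoposide (edgeR adjusted p = 0.997). Without the filter, 48 such results were found among members, 1 to 12 in each comparison. With the filter and replica as a block, 8 of the 41 members had an unadjusted p under 0.05 in TOP2A over input under etoposide. This stood beside 143 of all 1068 regions, and all 8 were lower in TOP2A. The lowest adjusted p among them was 0.213, for dhor_1_2 (S5C1H5d, chromosome 1), at −1.90 ± 0.52 (log2, SE, edgeR with the block). The region dhor_16_1 (S02CMH2d, chromosome 16) was lower than input in 4 of 4 replicas, at −1.48 ± 0.49 (adjusted p = 0.243 in the same edgeR fit). These members were picked by their p and are given as descriptions.

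The etoposide effect in the pulldown was also set against that in input. For TOP2A minus input the divergent arrays gave −0.76 ± 1.6 and the inactive arrays −0.58 ± 2.47 (log2, SD, n = 4). For TOP2B minus input they gave 0.21 ± 0.92 and 0.41 ± 1.39. All 4 means were smaller than their SD. For TOP2A minus input the means were −1.49 and −1.58 without E3 and −0.21 and 0.43 without E4. For TOP2B minus input the divergent mean was −0.06 without E3 and the inactive mean 0.04 without E4, and without E1 they were 0.61 and 1.01. In both of these comparisons 0 of 41 members and 0.0% of 1068 regions were called by edgeR.

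**Figure D3:**
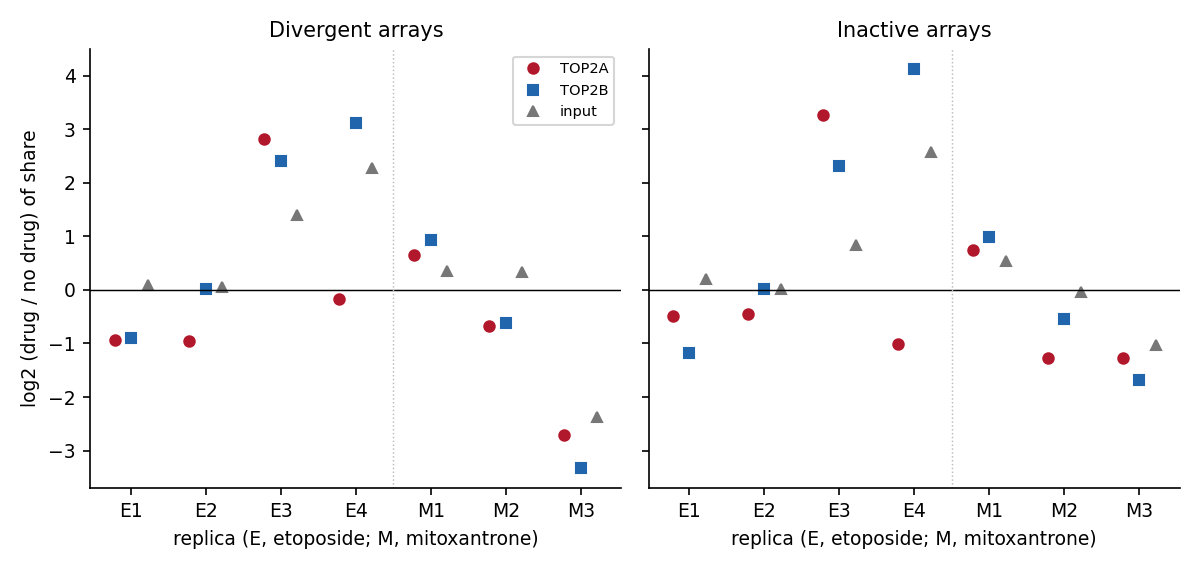
Log2 ratio of the share with drug to the share without drug, for divergent arrays (left) and inactive arrays (right), one point per replica and library kind, with etoposide replicas E1 to E4 left of the dotted line and mitoxantrone replicas M1 to M3 right of it. Replicas of the same drug lie on both sides of 0, from 2.82 in E3 to −0.96 in E2 for divergent arrays in TOP2A.

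Mitoxantrone was tested in 3 replicas, which disagreed in sign. In the TOP2A pulldown the divergent share was 0.324% with mitoxantrone and 0.206% without drug in M1. It was 0.149% with mitoxantrone and 0.236% without drug in M2. In M3 it was 0.0686% with mitoxantrone (747 reads) and 0.450% without drug (5660 reads). M1 was thus higher, M2 lower and M3 much lower with the drug. The log2 ratios were 0.65, −0.67 and −2.71, with a mean of −0.91 ± 1.70 (SD, n = 3). Without M3 that mean was −0.01. Inactive arrays gave 0.75, −1.27 and −1.27 (mean −0.60 ± 1.17, SD, n = 3). Of the 80 members tested edgeR called 0, beside 0.0% of all 1416 regions tested.

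In the TOP2B pulldown the divergent share was 0.404% with mitoxantrone and 0.213% without drug in M1. It was 0.0728% with mitoxantrone and 0.112% without drug in M2, and 0.0470% with mitoxantrone and 0.470% without drug in M3. The mean log2 ratio was −1.01 ± 2.15 for divergent and −0.41 ± 1.34 for inactive arrays (SD, n = 3). In input the divergent share was 0.180% with mitoxantrone and 0.141% without drug in M1. It was 0.0383% with mitoxantrone and 0.0303% without drug in M2, and 0.0894% with mitoxantrone and 0.465% without drug in M3. Input thus followed the pulldowns in M1 and M3, and gave means of −0.56 ± 1.57 and −0.17 ± 0.79. Both TOP2B and input had 0 of 80 members called, against 0.0% of 1416 regions in each. The means without M3 were above 0 for both classes, at 0.15 and 0.22 in TOP2B and at 0.34 and 0.25 in input.

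Set against input under mitoxantrone, TOP2A averaged 0.81 ± 1.17 for divergent and 0.88 ± 1.29 for inactive arrays (log2, SD, n = 3). TOP2B averaged 0.39 ± 1.15 and 0.58 ± 1.13. In each of these, M1 and M2 were above 0 and M3 below it. The mitoxantrone effect in TOP2A minus that in input was −0.35 ± 0.66 and −0.42 ± 0.74, and for TOP2B it was −0.44 ± 0.89 and −0.24 ± 0.60. All 4 comparisons had 0 of 80 members called by edgeR, beside 0.0% of 1416 regions each. For drug effect minus input effect, the fitted divergent regions went the other way from the class means. In TOP2A 31 of 48 divergent and 18 of 32 inactive regions were above 0 (medians 0.18 and 0.03), beside 761 of 1416. In TOP2B 35 of 48 and 15 of 32 were above 0 (medians 0.37 and −0.02), beside 789 of 1416. The sign for divergent arrays thus depended on the summary used.

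By chromosome, the mean in TOP2A under mitoxantrone was below 0 for 22 of 22 chromosomes of divergent arrays (−2.62 on chromosome 21 to −0.38 on chromosome 22). Chromosome 21 rests on 84 divergent reads over the 42 libraries, with no read in 25 of them. The divergent class mean was −0.91 with M3 and −0.01 without it, so these counts lean on M3. For inactive arrays the mean by chromosome was below 0 for 18 of 19, the exception being chromosome 1 at 0.22 ± 0.33 (SD, n = 3). Chromosome 1 was also the highest in input, at 0.57 ± 0.56. There the inactive arrays gave 0.73 in M1, 1.02 in M2 and −0.06 in M3, while those of chromosome 18 gave 0.41, −0.84 and −1.10. All 8 inactive regions of chromosome 1 belong to the array S3C1H2, of family SF3.

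Replica M3 showed the 2 classes coming apart. With mitoxantrone the ratio of inactive to divergent reads was 1.26 (TOP2A), 1.46 (TOP2B) and 1.23 (input), against 0.463, 0.467 and 0.484 in the same kinds without drug. In the 39 other libraries the ratio lay between 0.225 and 0.662 (median 0.423). The 3 mitoxantrone libraries of M3 thus lay outside the range of all other libraries, in input as well as in both pulldowns. Their shares of low mapping quality were 21.5%, 21.2% and 23.5%, against 21.1%, 21.2% and 23.1% without drug. These libraries held 458 to 1885 divergent and 668 to 2326 inactive reads. In M3 the ratio of inactive to live reads was 0.465 to 0.607 with mitoxantrone and 0.407 to 0.452 without drug. The ratio of divergent to live reads was 0.377 to 0.430 with mitoxantrone and 0.842 to 0.976 without drug. Relative to live arrays, the divergent class thus differed more between drug and no drug in M3 than the inactive class. In the 39 other libraries inactive to live ran from 0.104 to 0.452, and divergent to live from 0.263 to 0.976. With mitoxantrone, M3 thus lay above the range of the others for inactive to live and within it for divergent to live. The pattern was chosen after its values were seen, comes from 1 replica and has no test. The mitoxantrone libraries of M1 and M2 are among the 39 others.

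**Figure D4:**
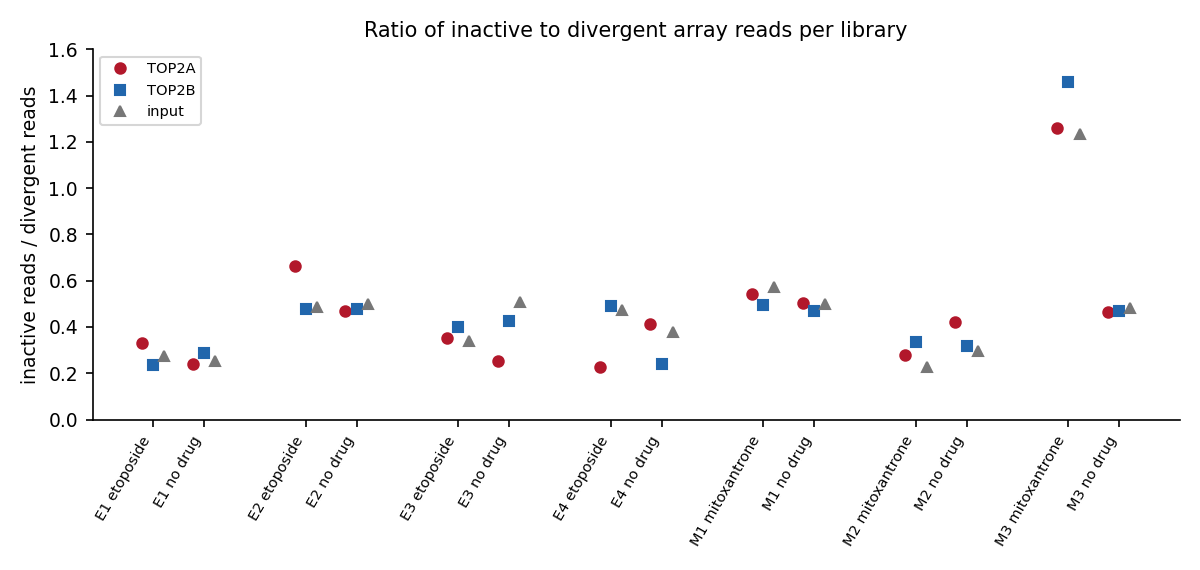
Ratio of inactive to divergent reads in each of the 42 libraries, by replica, with the drug libraries left of the no drug libraries. The 3 mitoxantrone libraries of M3 lie at 1.23 to 1.46 and the 39 others at 0.225 to 0.662.

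Part of the higher ratio in M3 lay in one family. Without the inactive SF3 regions, a sum added after seeing the data, the ratio of inactive to divergent reads in M3 was 0.759 (TOP2A), 0.771 (TOP2B) and 0.879 (input) with mitoxantrone, against 0.395, 0.395 and 0.411 without drug. In the 39 other libraries it lay between 0.141 and 0.556, so the M3 mitoxantrone libraries stood above that range without SF3 too. The 13 inactive SF3 regions, on chromosomes 1, 11 and 17, summed to 344 CPM in TOP2A, 323 in TOP2B and 318 in input with mitoxantrone, against 305, 340.0 and 337 without drug. Their log2 ratios were 0.17, −0.07 and −0.08. The other 66 inactive regions had 521, 362 and 786 CPM with mitoxantrone and 1778, 1858 and 1912 without drug, or log2 ratios of −1.77, −2.36 and −1.28. SF3 thus stood at a like level with and without mitoxantrone relative to all regions of M3, while the other inactive arrays were lower. It made up 39.8%, 47.2% and 28.8% of inactive reads with mitoxantrone and 14.7%, 15.5% and 15.0% without drug. Divergent arrays as a class gave −2.71, −3.32 and −2.38, and their own 9 SF3 regions gave −3.91, −3.46 and −2.30 on 5, 6 and 27 reads with mitoxantrone. Live SF3 arrays gave −0.63, −1.22 and −0.81, against −2.05, −2.64 and −1.62 in live SF2 arrays. Live SF01 arrays, at −0.66, −1.21 and −0.81, were close to live SF3.

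Region by region, 54 inactive and 71 divergent regions had at least 50 reads over the 3 no drug libraries of M3. A mean log2 ratio above 0 over the 3 library kinds was found in 7 of the 54 inactive regions and in 0 of the 71 divergent ones. The medians were −2.08 for inactive and −3.02 for divergent regions. The 7 were all SF3 arrays. On chromosome 11, hor_11_4, hor_11_1 and hor_11_5 (all S3C11H2) had 0.67, 0.31 and 0.29. On chromosome 1, hor_1_2, hor_1_8, hor_1_3 and hor_1_9 (variants of S3C1H2) had 0.61, 0.57, 0.16 and 0.02. Not every SF3 region did so. The region hor_1_1 (S3C1H2-A,B,C) had 8 reads with mitoxantrone and 108 without drug, a mean log2 ratio of −2.84, and hor_17_3 (S3C17H1-C) had −1.11. The largest SF3 region of the class on chromosome 17, hor_17_1 (S3C17H1-B), had 220 reads with mitoxantrone and 408 without drug, at −0.51.

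**Figure D5:**
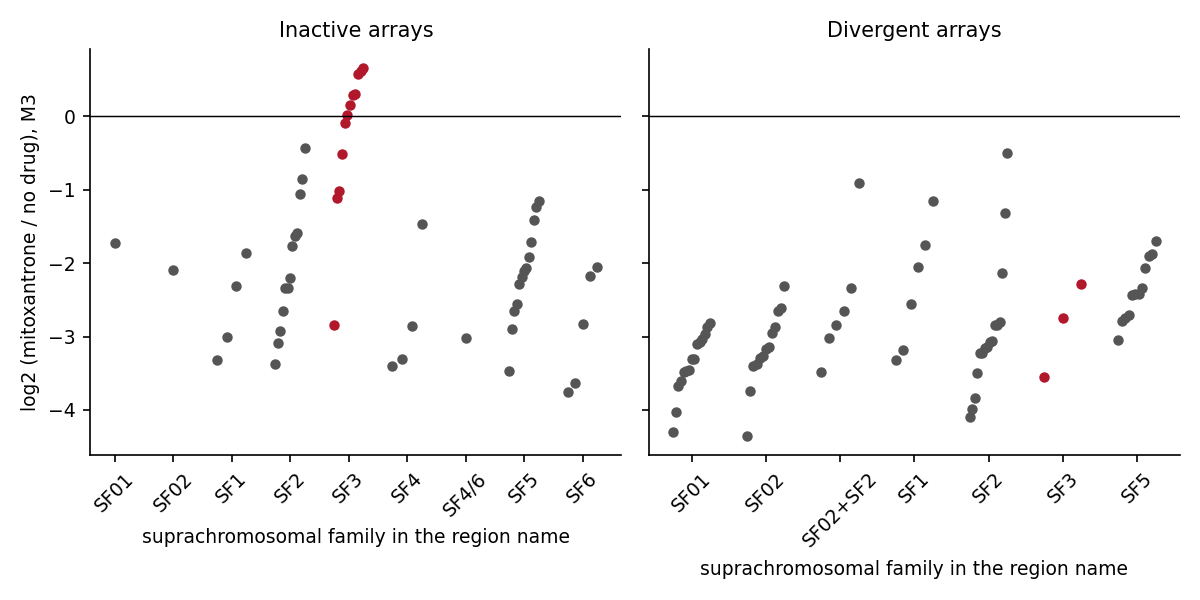
Log2 ratio of mitoxantrone to no drug in replica M3, averaged over TOP2A, TOP2B and input, for inactive regions (left) and divergent regions (right) with at least 50 reads without drug, by the family in the region name, with SF3 in red. In this replica 7 of 12 inactive SF3 regions lie above 0 and no region of another family does.

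The other mitoxantrone replicas were mixed. In M1, inactive SF3 arrays had log2 ratios of 0.42 in TOP2A, 0.43 in TOP2B and 0.96 in input, against 0.80, 1.08 and 0.46 for other inactive arrays. In M2 they had −0.49, 0.02 and 0.90, against −1.50, −0.62 and −0.20, but on 3 to 17 SF3 reads per library. SF3 was thus below other inactive arrays in both pulldowns of M1 and above them in input of M1 and in all 3 kinds of M2. Over the 3 replicas the means were 0.03 ± 0.47, 0.13 ± 0.27 and 0.59 ± 0.59 for SF3 and −0.82 ± 1.41, −0.63 ± 1.72 and −0.34 ± 0.88 for the rest (SD, n = 3). The region hor_1_2 was higher with mitoxantrone in input in 3 of 3 replicas, at 1.27 ± 0.58 (log2, SE) in the edgeR fit with the replica block. Its adjusted p was 0.998 there. This region stood among those with an unadjusted p under 0.05 in that edgeR fit and among those above 0 in M3. It is given as a description.

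Without drug, the 7 replicas let pulldown be compared with input. TOP2A over input averaged 0.36 ± 1.21 for divergent arrays and 0.28 ± 1.47 for inactive arrays (log2, SD, n = 7), with 3 and 2 of 7 replicas above 0. M2 stood far above the others, at 2.96 and 3.47, since its TOP2A library had 0.236% divergent and 0.10% inactive reads against 0.0303% and 0.00900% in its input. Without M2 the means were −0.07 and −0.25. The no drug TOP2A library of M2 had 43988 region reads, of which 104 were divergent and 44 inactive. TOP2B over input gave 0.24 ± 0.88 and 0.13 ± 1.06, and TOP2A over TOP2B gave 0.12 ± 0.44 and 0.16 ± 0.82 (SD, n = 7). None of the 28 members tested was called in the 3 comparisons, and 0.0% of 1028 regions were called in each.

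Single regions varied widely between replicas. The most abundant one, dhor_6_1 on chromosome 6, had in TOP2A 58.9, 394, 1213 and 77.3 CPM with etoposide in E1 to E4, and 92.8, 757, 158 and 103 CPM without drug. The 1213 CPM of E3 rest on 29 reads, and the 2 groups overlapped. Its log2 change was 0.30 ± 0.88 (SE) with an edgeR adjusted p of 0.999. With mitoxantrone it had 479, 270.2 and 116 CPM in M1 to M3 in TOP2A, against 283, 659 and 828 CPM without drug, again with overlap (−1.05 ± 0.75, log2, SE). Its partner in name, dhor_3_2 on chromosome 3, had 479, 187 and 71.6 CPM with mitoxantrone and 253, 250.1 and 672 CPM without drug in the same libraries (−0.74 ± 0.98, log2, SE). Both were lowest in M3 with mitoxantrone. In input under etoposide dhor_3_2 had 48.5, 674, 207 and 525 CPM, against 48.0, 613, 44.5 and 91.5 CPM without drug, and was higher in 4 of 4 replicas (0.78 ± 0.99, log2, SE). The SEs of single regions here and below come from the edgeR fit without the replica block. They hold the spread between replicas, not that of the change within a replica.

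The next 4 divergent regions had smaller levels. They were dhor_1_1 (S5C1H4d) on chromosome 1 with a mean of 106 CPM over the 42 libraries, dhor_12_7 (SF5) on chromosome 12 with 96.1, dhor_16_1 with 90.4, and dhor_6_2 (S01CMH1d) on chromosome 6 with 69.2. In TOP2B under etoposide their log2 changes were 0.89, 0.59, 0.49 and 0.78 in that order, with SEs of 0.87, 0.87, 0.69 and 1.10. In TOP2A under mitoxantrone they were −0.96, −0.33, −0.69 and −1.49. The edgeR adjusted p was at least 0.995 for every named region in the 6 comparisons of drug with no drug.

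Among inactive arrays hor_3_1 (S01C3H2, chromosome 3) was the most abundant, with a mean of 88.3 CPM. In TOP2B it had 6.75, 155, 205 and 149 CPM with etoposide in E1 to E4, and 15.1, 151, 9.22 and 5.69 CPM without drug. The values in E3 and E4 without drug are 1 read each, and the change was 1.24 ± 1.20 (log2, SE, edgeR adjusted p = 0.996). In E4 TOP2A it had 0 reads with etoposide and 1 without drug, where 183 CPM stood in the etoposide input. On chromosome 18, hor_18_1 (S2C18H2-A) and hor_18_7 (S2C18H2-D) averaged 64.9 and 53.6 CPM. In M3 TOP2A they had 57.9 and 58.8 CPM with mitoxantrone, against 184 and 114 CPM without drug.

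The region hor_20_1 (S2C20H2, chromosome 20; mean 37.2 CPM) differed least in M3 among the 6 most abundant inactive regions, at 53.3, 50.3 and 49.3 CPM with mitoxantrone and 58.0, 79.7 and 70.5 CPM without drug. By contrast hor_22_6 (S6C22H2-B, chromosome 22; mean 36.5 CPM) had 19.3, 12.3 and 33.7 CPM with mitoxantrone and 93.0, 78.0 and 82.9 CPM without drug. The region hor_19_2 (S5C5/19H4-B, chromosome 19; mean 61.2 CPM) lay between, with 47.8, 30.8 and 84.9 CPM against 110, 112 and 133 CPM. The edgeR changes of these 3 under mitoxantrone in TOP2A were 0.18 ± 0.83, −0.64 ± 0.98 and −0.88 ± 1.00 (log2, SE).

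Few members could be tested. The count filter was passed by 26 divergent and 15 inactive regions in the etoposide fit, by 48 and 32 in the mitoxantrone fit, and by 18 and 10 in the fit of no drug libraries. A member that passed because some libraries were high is not typical of its class, so the following counts describe these regions and carry no test. In TOP2B under etoposide 26 of 26 divergent and 15 of 15 inactive regions had a fitted log2 change above 0 (medians 0.78 and 0.87), beside 584 of all 1068 (median 0.07). Input under etoposide, which saw no antibody, had 26 of 26 and 14 of 15 above 0 (medians 0.57 and 0.67), beside 615 of 1068. In TOP2A under etoposide 6 of 26 and 2 of 15 were above 0 (medians −0.66 and −0.49), beside 477 of 1068. Under mitoxantrone 5 of 48 divergent and 8 of 32 inactive regions were above 0 in TOP2A (medians −0.81 and −0.57), beside 657 of 1416 (median −0.05). In input the counts were 1 of 48 and 8 of 32, beside 621 of 1416. A library's alpha satellite level moves all of its arrays, so members within a library are not replicates.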

How the data were processed

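Raw read counts per named region of T2T-CHM13 were deposited for 42 libraries of KG1 DNA. Per the submitters' processing notes, the authors used Trimmomatic 0.36, BWA 0.7.17 and HTSeq (given as 2.7.13). The mapping-quality minimum is not given in the sources used here. The 5 tally rows, which name no region, were left out of library sizes, and named regions held 2.57% to 5.50% of all reads. Members and lists were chosen with earlier results of these data known.

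Each series was fitted over all its regions with edgeR 4.0.16 (TMM, filterByExpr with a minimum count of 10, quasi-likelihood test, Benjamini-Hochberg, threshold 0.05). A test on simulated data came first. It used a smaller spread than these libraries have and no replica effect, so it does not measure power here. The 7 replicas' no drug libraries had a fit of their own. Class sums have no p: they are log2 ratios within a replica, with 0.5 reads added. Replica labels, each with its own 6 libraries of one order, were taken as pairing the libraries. Deviations of drug and no drug libraries correlated above 0.1 in 18 of 21 pairs. The exceptions were E3 TOP2A (−0.03), E4 TOP2B (−0.21) and E4 input (−0.46). These pairs gave the highest etoposide ratio of their library kind in both classes, and only the labels pair them. The best match lay within the same replica in 17 of 21 pairs. E3 TOP2B, at 0.20, was not among these. Of 54 pairs of libraries within groups, none was identical. Named were the 6 regions per class of highest mean CPM, each chromosome's sum, and up to 5 called members per end. Alternatives were a replicate block, DESeq2, RLE factors, another denominator, no filter, other pseudocounts, the class without its top region, and leaving out each replica.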

Additional observations from a re-analysis of the deposited data

Results flagged for a closer look

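In the etoposide series without drug, replica E2 lay far above E1, E3 and E4. The test of the gap between the most extreme library and its neighbour, a Dixon test at the 95% level, was run on 90 groups of values and marked 31, all of them E2 without drug: 10 for TOP2A, 8 for TOP2B and 13 for input. Groups of the mitoxantrone series, with 3 libraries each, were too small for it and were not tested. Chance marks about 1 in 20 groups if values are normally distributed. The values here were not log-transformed, and those of one library are not independent. The marks lie in input as well as in both pulldowns, and E2 is the one replica of its sequencing order, so replica and order cannot be told apart.

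The divergent share of E2 was 0.414% (TOP2A), 0.407% (TOP2B) and 0.431% (input), where the other replicas had 0.0381% to 0.0821%. Its inactive share was 0.194%, 0.194% and 0.215%, where the others had 0.00910% to 0.0350%. Among divergent regions, dhor_6_1 had 757 CPM in TOP2A and 765.0 in input, and dhor_3_2 had 594 (TOP2A), 547 (TOP2B) and 613 (input). The region dhor_1_1 had 216 (TOP2A), 218 (TOP2B) and 229.5 (input). In TOP2A and input, dhor_12_7 had 182 and 188 CPM and dhor_16_1 had 197 and 174, while dhor_6_2 had 139 in TOP2A and 162 in TOP2B. Among inactive regions, hor_3_1 had 151 CPM in TOP2B and 209.5 in input, hor_18_1 had 115 in TOP2A and 112 in input, and hor_19_2 had 94.6 in TOP2B and 103 in input. The region hor_18_7 had 156 in TOP2A, where E1, E3 and E4 had 0 reads, 126 in TOP2B and 163 in input. In input, hor_20_1 had 69.8 CPM and hor_22_6 had 88.1. Such levels were not confined to E2 without drug. For dhor_6_1, the etoposide libraries of E2 had 394 to 796 CPM, and the no drug libraries of M3 had 777 to 828 CPM.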

How the results depend on the processing

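The replica labels were taken as pairing the libraries. With replica as a block the edgeR fit called 0 regions in each of the 17 comparisons, as did the fit without the block. The lowest adjusted p among members was 0.213 with the block. The median coefficient of variation that edgeR estimated without the block was 0.53 (etoposide), 0.64 (mitoxantrone) and 0.51 (no drug libraries). With the block it was 0.34, 0.34 and 0.18. DESeq2, RLE factors, a library size that adds reads outside the named regions, no filter on low counts, and leaving out each replica also gave 0 calls in every comparison, with at most 104 regions at an unadjusted p under 0.05 without the filter. Of the 34 mean log2 changes of the classes, the wider denominator moved each by at most 0.033 and turned no sign. A pseudocount of 5 reads moved them by at most 0.127 and turned 1, the divergent mean in TOP2B over input under etoposide, to 0.02. Leaving out the most abundant region moved them by at most 0.146. Leaving out a replica turned the sign of 18 of the 34. For etoposide over no drug in TOP2A the divergent mean then ran from −0.69 to 0.57, and for mitoxantrone over no drug in TOP2A it ran from −1.69 to −0.01. Depth limits single regions, since the median region had 267 reads (divergent) or 261 (inactive) over the 42 libraries together.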
